A study of Homo sapiens with 6 samples.

Results

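The 6 miRNAs described here lie in introns of genes of lipid, mitochondrial and coenzyme A metabolism, and were taken by name from the 832 miRNAs of the table. They are hsa-miR-33a-5p (SREBF2), hsa-miR-33b-5p (SREBF1), hsa-miR-378a-3p and hsa-miR-378a-5p (the opposite arms of 1 hairpin in PPARGC1B), hsa-miR-103a-3p (PANK3 and PANK2) and hsa-miR-107 (PANK1). The rule uses names and host genes and no threshold on a measured value, but it was set with earlier results of these data known. Small RNA was sequenced from extracellular vesicles (EVs) of MDA-MB-231, a human triple-negative breast cancer line. One group was EVs of unmodified cells, labelled WT (231 EV, n = 3), and the other was EVs of cells with ACO1 knocked down (231/ACO1 KD EV, n = 3). ACO1, aconitase 1, is a cytosolic enzyme of citrate that turns into an iron-responsive RNA binding protein when iron is scarce. The study used the comparison to ask whether miRNAs, miR-33a first among them, need ACO1 to leave the cell in EVs. EVs were pelleted by ultracentrifugation from medium that had been freed of EVs, and how ACO1 was knocked down in these cells was not given in the sources used here. Small RNA libraries do not read mRNA, so neither ACO1 nor the host genes could be examined. Nothing in the labels says that the replicates were separate cultures, so the p-values measure the spread between these libraries, which may be technical.

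miR-33a and miR-33b sit in the genes of the sterol regulatory element binding proteins, the transcription factors that switch on cholesterol and fatty acid synthesis, and are best known for repressing ABCA1, the pump that carries cholesterol out of the cell. miR-378a lies in the gene of PGC-1β, a coactivator of mitochondrial respiration, and has been tied to fatty acid oxidation. miR-103a and miR-107 lie in genes of the pantothenate kinases, which start coenzyme A synthesis, and are known for lowering insulin sensitivity. An intronic miRNA can be cut from its host's transcript, while the arm that is kept and the copies that enter EVs are set later.

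The mature sequences are shown because the members form 2 pairs of near-identical miRNAs, and because miR-33a carries the letters that the study names as its ACO1 binding sequence. They are the RefSeq sequences, 5′ to 3′, with the seed (bases 2 to 8, which pair with target mRNAs) in capitals.
hsa-miR-33a-5p: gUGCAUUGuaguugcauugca
hsa-miR-33b-5p: gUGCAUUGcuguugcauugc
hsa-miR-378a-3p: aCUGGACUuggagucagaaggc
hsa-miR-378a-5p: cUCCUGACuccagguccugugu
hsa-miR-103a-3p: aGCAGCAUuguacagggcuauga
hsa-miR-107: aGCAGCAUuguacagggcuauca
miR-33a-5p and miR-33b-5p shared the seed UGCAUUG and 18 of their 20 aligned bases, and differed by U9C and A10U, counted from the 5′ end with the miR-33a-5p base first. miR-103a-3p and miR-107 shared the seed GCAGCAU and differed by G22C alone, with the miR-103a-3p base first. No other miRNA of the table with a matched sequence had either seed. A read that is trimmed before base 22 cannot separate miR-103a-3p from miR-107, so their split is uncertain. The seed of miR-378a-3p, CUGGACU, was shared by miR-378c and miR-378f, and that of miR-378a-5p, UCCUGAC, was found in no other miRNA.

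In GRCh38.p14 coordinates of RefSeq, counted from 1, mature miR-33a-5p lies at chr22:41900949-41900969 on the plus strand, in intron 16 of SREBF2. miR-33b-5p lies at chr17:17813897-17813916 on the minus strand, in intron 16 of SREBF1. The SREBF genes are paralogues, and the hairpin occupies the intron of the same number in both. The miR-378a arms lie at chr5:149732829-149732850 (5p) and chr5:149732867-149732888 (3p) on the plus strand, in intron 1 of PPARGC1B, which is 90012 bases long. miR-103a-3p is made from 2 hairpins, at chr5:168560904-168560926 on the minus strand in intron 5 of PANK3 and at chr20:3917541-3917563 on the plus strand in intron 5 of PANK2, and its reads cannot be assigned to either. miR-107 lies at chr10:89592756-89592778 on the minus strand, in intron 5 of PANK1. Introns were numbered on the principal GENCODE 29 transcript, and every hairpin lay on the strand of its host.

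The authors deposited, for every miRNA, the number of reads counted on it and a TPM value, which is here the count brought to a common library sum, with no length term. Totals were between 224948 and 230562 counts in 231 EV, against 175924, 67873 and 157322 counts in 231/ACO1 KD EV replicates 1, 2 and 3. 1 count was thus worth 4.34 to 4.45 TPM in the former and 5.68, 14.7 and 6.36 TPM in the latter, and replicate 2 of the knockdown holds least information on scarce miRNAs. The test covered the 517 miRNAs that had a count in 3 or more of the 6 libraries, all 6 members among them. TMM scaling (edgeR's trimmed mean method) centred the 517 log2 fold changes on a median of -0.03, and scaling by library totals on 0.32, a shift of 0.35. Fold changes set 231/ACO1 KD EV against 231 EV, with TMM unless another scaling is named. The share of counts taken by miR-21-5p, the highest miRNA, was 28.5%, 31.2% and 30.2% in 231 EV and 12.2%, 11.7% and 18.4% in the knockdown. All 6 epithelial marker miRNAs (miR-200 family, miR-141 and miR-205) were detected, with sums of 858 to 985 TPM in controls against 619 to 992 TPM in the knockdown. Their median log2 fold change was -0.54, 5 of 6 were below 0, and 1, miR-205-5p, was called lower with TMM (-0.93, edgeR adjusted p = 0.00749). Markers of leukocytes, platelets and endothelium (5 of 5 detected, 3 higher) summed to 15231 to 17769 TPM in 231 EV against 25337 to 29938 TPM in the knockdown, and those of red cells (3 of 3 detected, 2 lower) to 2009 to 2178 against 1256 to 1634 TPM. Liver markers (2 detected, summed 1098 to 1324 against 998 to 1887 TPM) and muscle markers (26.7 to 75.6 against 63.6 to 147 TPM) had no called miRNA. The part of these cell types and of miR-21-5p in the members' values was not tested.

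With TMM, 4 of the 6 members were called lower in 231/ACO1 KD EV (miR-33a-5p, miR-378a-3p, miR-103a-3p and miR-107) and none was called higher. With library totals, however, none was called lower and miR-378a-5p was called higher. Over all 517 tested miRNAs, 31 (6.0%) were called lower and 13 (2.51%) higher with TMM, and 13 (2.51%) lower and 58 (11.2%) higher with library totals. The median log2 fold change of the members was -0.80 with TMM and -0.48 with library totals, below the median of all tested miRNAs in both cases. Set against that median, each member had nearly the same change in both scalings: miR-33a-5p was at -1.07 and -1.09, miR-378a-3p at -1.06 and -1.07, miR-107 at -0.72 and -0.72, miR-103a-3p at -0.42 and -0.41, and miR-378a-5p at 0.82 and 0.81. The scaling thus moved the zero line and left the order of the members as it was. DESeq2 called 2 members lower and none higher, and limma on log2(TPM + 1) called none lower and 1 higher. All 6 libraries are of EVs and none is of the cells. Fewer vesicles that carry a miRNA, fewer copies in each vesicle and a lower level in the cells therefore cannot be told apart.

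**Figure D1:**
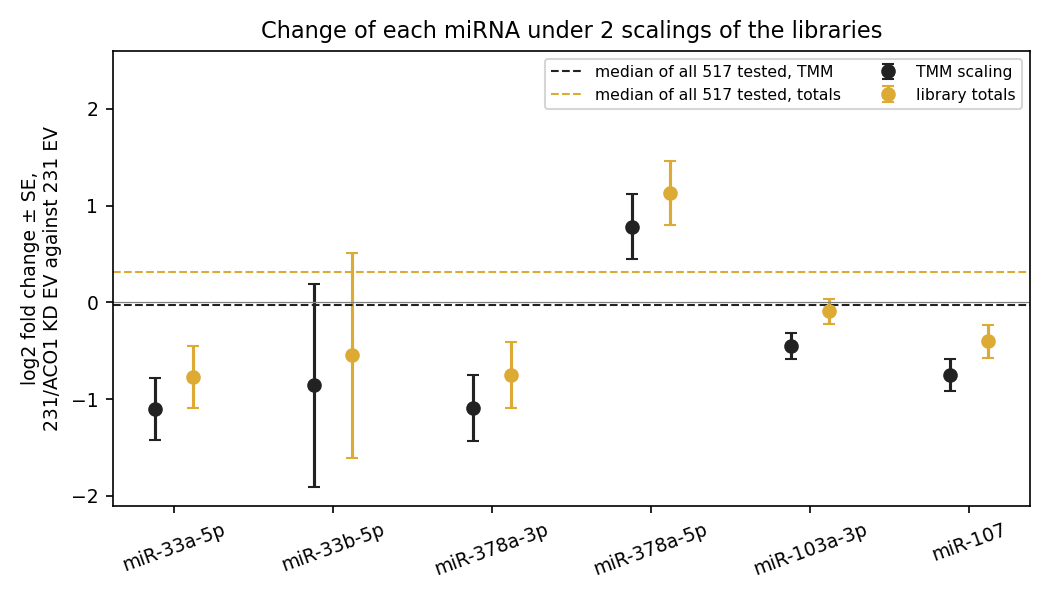
Log2 fold change (231/ACO1 KD EV against 231 EV, n = 3 each) of each miRNA, with TMM (black) and with library totals (yellow). Points are edgeR estimates, and bars are ± the SE derived from the F statistic of its quasi-likelihood test. Dashed lines mark the median of the 517 tested miRNAs, -0.03 and 0.32, and miR-378a-5p alone lies above both of them.

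The members span 3 orders of magnitude in these EVs. miR-103a-3p ranked 10 of 832 by mean TPM and miR-107 ranked 47, while miR-33a-5p (159), miR-378a-5p (163) and miR-378a-3p (173) stood close together and miR-33b-5p ranked 385. All 6 members together took 2.20% ± 0.0319 (SD, n = 3) of the counts in 231 EV and 2.01% ± 0.135 (SD, n = 3) in the knockdown, nearly all of it miR-103a-3p and miR-107. In 231 EV, miR-33a-5p at 202 ± 61.6 TPM (SD, n = 3) and miR-378a-3p at 176 ± 20.4 TPM (SD, n = 3) did not differ beyond their spread.

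**Figure D2:**
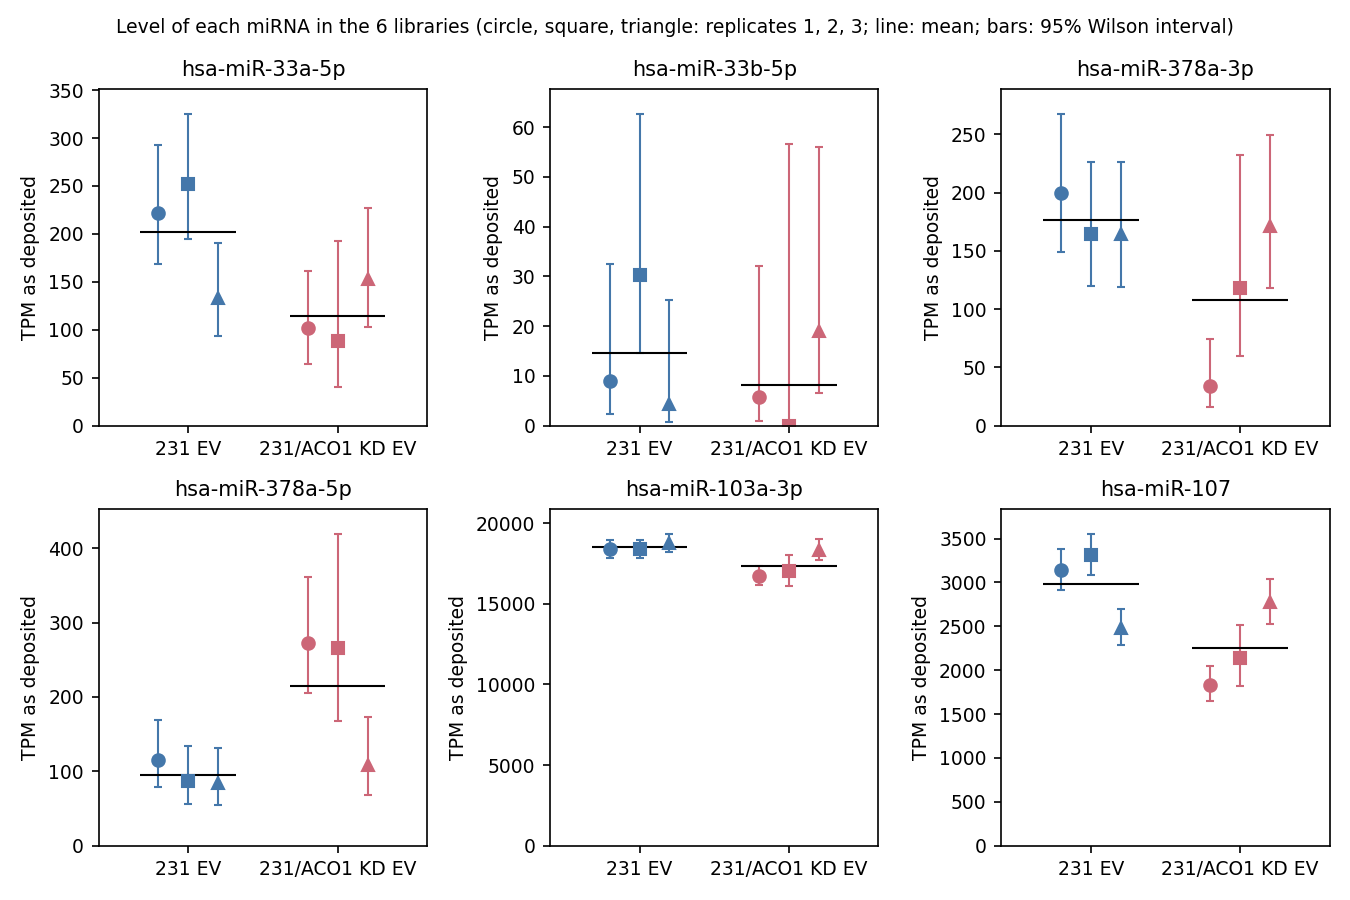
Deposited TPM of the 6 miRNAs in each library, with one panel per miRNA, every axis from 0, circle, square and triangle for replicates 1, 2 and 3, black lines at the group means and bars for 95% Wilson intervals of the counts. In the knockdown the triangle lies closest to the 231 EV mean in every panel, of which that of miR-33b-5p rests on 14 counts in all.

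miR-33a-5p, the miRNA of the study, was read 50, 58 and 30 times in 231 EV replicates 1, 2 and 3 (222, 252 and 133 TPM) and 18, 6 and 24 times in 231/ACO1 KD EV (102, 88.4 and 153 TPM). On the deposited scale the groups overlapped, since the third control library lay below the third knockdown library. With TMM the values were 243, 280 and 159 CPM against 92.4, 73.9 and 140 CPM and no longer overlapped. Over all tested miRNAs, 12.8% had every knockdown library lower and 11.6% every knockdown library higher on that scale, against 5.80% and 22.6% in TPM. The log2 fold change was -1.10 ± 0.32 (SE, edgeR adjusted p = 0.0116), and -0.77 ± 0.32 with library totals (edgeR adjusted p = 0.0920). The call, which rests on few reads, was lost without 231 EV replicate 1 (-1.05, edgeR adjusted p = 0.0652) or 2 (-0.92, adjusted p = 0.150) and without knockdown replicate 1 (-0.97, adjusted p = 0.0785) or 2 (-0.99, adjusted p = 0.0534). Over the 16 alternatives the adjusted p ran from 0.00264 to 0.157.

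miR-33b-5p, which has the same seed, was near the limit of these libraries. It had 2, 7 and 1 counts in 231 EV (8.89, 30.4 and 4.44 TPM) and 1, 0 and 3 counts in the knockdown (5.68, 0 and 19.1 TPM). A count of 0 in knockdown replicate 2 allows up to 44.2 TPM, taking 3 counts as the limit, which is above every other value of this miRNA. The log2 fold change of -0.86 ± 1.05 (SE, edgeR adjusted p = 0.757) had a 95% interval from -2.91 to 1.20, and without 231 EV replicate 2 it was 0.20 (edgeR adjusted p = 0.960). A change of miR-33b-5p like that of miR-33a-5p was therefore not detectable at this depth, nor was its absence. Summed, the miR-33 pair came to 217 ± 73.1 TPM in 231 EV and 123 ± 43.5 TPM in the knockdown (SD, n = 3 each), and 138 of its 148 reads in 231 EV were miR-33a-5p.

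The arms of the PGC-1β hairpin had log2 fold changes of opposite sign. miR-378a-3p, the arm usually studied for mitochondrial metabolism, was counted 45, 38 and 37 times in 231 EV (200.05, 165 and 164 TPM) and 6, 8 and 27 times in 231/ACO1 KD EV (34.1, 118 and 172 TPM). Knockdown replicate 1 lay far below every other library and replicate 3 lay among the controls, so the groups overlapped in TPM, while with TMM they did not (219, 184 and 196 against 30.8, 98.5 and 157 CPM). The log2 fold change was -1.09 ± 0.34 (SE, edgeR adjusted p = 0.0215), and -0.75 ± 0.34 with library totals (adjusted p = 0.135). It shrank to -0.55 (edgeR adjusted p = 0.473) without knockdown replicate 1, and the call was also lost without 231 EV replicate 1 (-1.0, adjusted p = 0.123) or 3 (-1.10, adjusted p = 0.0888). Over the 16 alternatives the adjusted p ran from 0.000526 to 0.473.

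miR-378a-5p was counted 26, 20 and 19 times in 231 EV (116, 86.7 and 84.4 TPM) and 48, 18 and 17 times in 231/ACO1 KD EV (273, 265 and 108 TPM). Knockdown replicates 1 and 2 were above all controls, and replicate 3 was between them. The log2 fold change was 0.78 ± 0.33 (SE, edgeR adjusted p = 0.125) with TMM, and 1.13 ± 0.33 (adjusted p = 0.00749) with library totals. Without knockdown replicate 3 it passed the threshold with TMM as well (1.14, edgeR adjusted p = 0.00670), and over the 16 alternatives the adjusted p ran from 0.00670 to 0.636.

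The arms come from the same hairpin, and their ratio within a library does not depend on how libraries are scaled. miR-378a-3p made up 63.4% of the reads of both arms in 231 EV replicate 1 (95% Wilson interval 51.8% to 73.6%), 65.5% in replicate 2 (52.7% to 76.4%) and 66.1% in replicate 3 (53.0% to 77.1%). In 231/ACO1 KD EV its share was 11.1% (5.19% to 22.2%), 30.8% (16.5% to 50.0%) and 61.4% (46.6% to 74.3%). The 5p arm thus outnumbered the 3p arm in knockdown replicates 1 and 2, by 48 reads to 6 and by 18 to 8, and the arms kept the order of the controls in replicate 3. The log2 ratio of 5p to 3p was -0.88 ± 0.0863 in 231 EV and 1.12 ± 1.78 in the knockdown (SD, n = 3 each), a difference of 2.0 on the log2 scale, or 4.0-fold. The groups did not overlap, but with 3 libraries against 3 the two-sided exact permutation test cannot go below its value here, p = 0.1 (0.3 after Benjamini-Hochberg adjustment over the 6 ratios tested). The size of the difference depends on single knockdown libraries, at 1.11 on the log2 scale without replicate 1 and 2.89 without replicate 3. Summed, the arms differed less, with 272 ± 37.8 TPM in 231 EV and 323 ± 53.6 TPM in the knockdown (SD, n = 3 each). Intervals cover counting error only.

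miR-103a-3p, the most abundant member, had 4141, 4242 and 4221 counts in 231 EV (18409, 18399 and 18759 TPM) and 2943, 1155 and 2886 counts in 231/ACO1 KD EV (16729, 17017 and 18345 TPM). All knockdown libraries lay below all control libraries on both scales, but knockdown replicate 3 missed the lowest control by little in TPM, where the means were 18522 ± 206 and 17364 ± 862 (SD, n = 3 each). With TMM the log2 fold change was -0.45 ± 0.13 (SE, edgeR adjusted p = 0.0118), and with library totals it was -0.093 ± 0.13 (adjusted p = 0.717). So well-counted a miRNA has little counting error, and its call still turned on the scaling and on single libraries. It was lost without any 1 of the 231 EV replicates 1, 2 and 3 (-0.47, -0.46 and -0.41, edgeR adjusted p = 0.0601, 0.0544 and 0.111) and without knockdown replicate 2 (-0.39, adjusted p = 0.0851). The adjusted p of the 16 alternatives ran from 0.000214 to 0.738.

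miR-107, which differs from miR-103a-3p by 1 base near its 3′ end, had 706, 763 and 559 counts in 231 EV (3139, 3309 and 2484 TPM) and 323, 145 and 436 counts in 231/ACO1 KD EV (1836, 2136 and 2771 TPM). Knockdown replicate 3 was above the third control in TPM, while with TMM the groups did not overlap (3432, 3689 and 2959 against 1658, 1785 and 2540 CPM). Its log2 fold change was -0.75 ± 0.17 (SE, edgeR adjusted p = 0.000311), the lowest p of the members, and it passed the threshold whichever single library was left out. With library totals it was -0.40 ± 0.17 (edgeR adjusted p = 0.0923), and over the 16 alternatives the adjusted p ran from 8.28e-07 to 0.118. miR-107 held 14.6%, 15.2% and 11.7% of the reads of the pair in 231 EV and 9.89%, 11.2% and 13.1% in the knockdown, and the ranges overlapped. The pair as a whole came to 21500 ± 236 TPM in 231 EV and 19611 ± 1336 TPM in the knockdown (SD, n = 3 each).

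To place miR-33a-5p beside the other miRNAs without any scaling, counts were compared as log2 ratios within each library. Against miR-103a-3p, miR-33a-5p was lower by 0.67 in the knockdown (-6.55 ± 0.50 in 231 EV and -7.22 ± 0.31 in the knockdown, exact permutation p = 0.2). miR-378a-3p differed from miR-103a-3p by -0.84 (exact permutation p = 0.3), miR-107 by -0.32 (p = 0.2) and miR-378a-5p by 1.16 (p = 0.2). Without knockdown replicate 1 the value of miR-378a-3p was -0.20, that of miR-107 was -0.21 and that of miR-378a-5p was 0.91, and without replicate 3 they were -1.25, -0.44 and 1.64. In each of these 4 ratios the groups overlapped, and the adjusted values over the 6 ratios were 0.3, 0.36, 0.3 and 0.3. The ratio of miR-33a-5p to miR-378a-3p was 0.15 ± 0.45 in 231 EV and 0.32 ± 1.04 in the knockdown (SD, n = 3 each). That difference of 0.17 (exact permutation p = 0.9, also after adjustment) turned to -0.06 without 231 EV replicate 3 and to -0.43 without knockdown replicate 1. The ratio of miR-33a-5p to miR-107 was not among those compared, and with 3 libraries a group no ratio could have reached a p under 0.1.

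Knockdown replicate 3 was the knockdown library nearest to the 231 EV mean for all 5 members with a mean count of at least 10, in TPM and with TMM. Among the 226 tested miRNAs with such a count, it was the nearest for 122 (54.0%) in TPM and 107 (47.3%) with TMM, and its share of miR-21-5p was also the nearest to the controls. Over the 6 libraries and on the log2(TMM CPM + 1) scale, the Pearson r of miR-33a-5p was 0.97 with miR-107, 0.85 with miR-103a-3p, 0.71 with miR-378a-3p and -0.79 with miR-378a-5p, and that of the miR-378a arms was -0.85. All points share the scaling and the groups, so these r describe 6 libraries and no more. Outside the set, the miRNAs most like miR-33a-5p were miR-2276-3p and miR-22-5p (r = 0.96 for both), with no minimum count for these partners. miR-2276-3p had 2, 4 and 1 counts in 231 EV and 0, 0 and 1 in the knockdown, and its r rests on those. Those most like miR-378a-3p were miR-139-5p (0.96) and miR-493-5p (0.95), and those most like miR-378a-5p were miR-125a-5p (0.99) and the predicted miRNA 18_14614 (0.95), which had 1, 0 and 0 counts against 3, 3 and 0. For miR-103a-3p they were miR-10a-5p (0.99) and miR-21-5p (0.99), and for miR-107 they were miR-24-3p and miR-138-5p (0.98 for both).

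The study names CAUUG, read 5′ to 3′ on the mature strand, as the binding sequence in its docking model of miR-33a with ACO1. The members were therefore searched for it. In the study's pull-down, miR-33a mutated at the longer CAUUGC did not bring down ACO1, while miR-33a mutated outside CAUUGC did. CAUUG stood at bases 4 to 8 and again at bases 15 to 19 of both miR-33a-5p and miR-33b-5p. In miR-103a-3p and miR-107 it stood at bases 6 to 10. Only the second copy in miR-33a-5p is followed by C, and miR-103a-3p and miR-107 do not hold CAUUGC. Neither arm of miR-378a held CAUUG. Of the 782 miRBase names in the table, 715 had a matched RefSeq mature sequence, 435 of them were tested, and 18 of these (4.14%) held CAUUG. The other holders called with TMM and the 3 holders of highest mean TPM are shown beside the members that hold it, with the letters in capitals.
hsa-miR-33a-5p: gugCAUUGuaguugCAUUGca
hsa-miR-33b-5p: gugCAUUGcuguugCAUUGc
hsa-miR-107: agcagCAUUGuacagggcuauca
hsa-miR-103a-3p: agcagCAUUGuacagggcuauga
hsa-miR-221-3p: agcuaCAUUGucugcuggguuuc
hsa-miR-23a-3p: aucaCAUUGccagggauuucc
hsa-miR-181b-5p: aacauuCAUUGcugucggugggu
hsa-miR-25-3p: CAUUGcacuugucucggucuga
A match says only that these letters are present. With TMM, 6 of the 18 tested holders were called lower and none higher by edgeR, with a median log2 fold change of -0.50, against 18 lower and 6 higher among the 417 tested miRNAs without the letters and a median of -0.06. Among miRNAs with a mean count of at least 10, 6 of 12 holders and 18 of 183 others (9.84%) were called lower. These tallies count near-identical miRNAs separately. miR-103a-3p and miR-107, whose split is uncertain, are both among the lower calls, and miR-199a-3p and miR-199b-3p have the same mature sequence. With library totals 1 holder was lower and 3 were higher, with a median of -0.15, against a median of 0.29 without the letters. Among all 435 tested miRNAs with a sequence, holders included, 7 were lower and 40 higher with library totals. With TMM, the number of holders called lower was 2 without 231 EV replicate 1. It was 3 without 231 EV replicate 3, knockdown replicate 1 or knockdown replicate 2. The study picked out miR-33a by comparing EVs of glucose-starved and normally fed cells, together with target predictions. It then reported blocked secretion of miR-33a from small RNA sequencing of the ACO1 knockdown, so miR-33a is not independent evidence here. By RT-qPCR, the study also found less miR-33a in EVs of miR-33a-overexpressing cells after ACO1 knockdown, and ACO1 immunoprecipitation brought down miR-33a.

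Apart from the members, 3 of 14 tested holders were called lower with TMM, with a median of -0.25. miR-221-3p, a repressor of the cell cycle inhibitor p27, went from 18199 ± 966 to 12736 ± 3930 TPM (SD, n = 3 each) with a log2 fold change of -0.87 (edgeR adjusted p = 7.47e-09), and was the holder also called lower with library totals (-0.51, adjusted p = 0.00184). miR-23a-3p had a log2 fold change of -0.51 (edgeR adjusted p = 0.00520) and miR-181b-5p of -0.81 (adjusted p = 0.0116), and neither was called with library totals. miR-25-3p, a member of the MCM7 cluster and second in level among the holders at 16411 TPM, was at 0.02 with TMM. It was called higher with library totals (0.38), as were miR-199a-3p (0.82) and miR-199b-3p (0.81), which have the same mature sequence and share their reads. The 7 tested holders of the longer CAUUGC, to which miR-33a-5p and miR-33b-5p belong, had 3 lower and none higher with TMM, with a median of -0.51, and none lower and 1 higher with library totals.

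The relatives of the members were almost absent. Of 15 listed miRNAs, the opposite arms of the members and others of the same families, 5 had a row in the table and 2 were tested, and neither was called. miR-33a-3p, the opposite arm of miR-33a-5p, had 1, 0 and 6 counts in 231 EV and 1, 0 and 2 in the knockdown, and miR-378g, which is named with the family but has the seed CUGGGCU, had 0, 1 and 0 against 0, 1 and 2. miR-378c, miR-378f and miR-103a-2-5p had 1 count each over all libraries. Reads of the miR-378a-3p seed were thus almost all miR-378a-3p.

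Other miRNAs listed for genes of metabolism gave no call, where 6.0% of all tested miRNAs were called lower and 2.51% higher. All 9 found in the table, of 13 listed, were tested, with no call in either direction with TMM or with library totals, and their median log2 fold change was 0.44 with TMM (0.78 with library totals). Several had few reads, such as miR-1908-5p with 2, 0 and 0 counts in 231 EV and 3, 0 and 1 in the knockdown, so that the lack of calls carries little information. The hosts of 4 of the 9 were taken as listed and were not found in GENCODE 29 here. The most abundant were both arms of miR-1307, from the gene of a small subunit of the ATP synthase (ATP5MK, named ATP5MD in GENCODE 29), and miR-625-3p, from the fucosyltransferase gene FUT8. miR-1307-3p, with 160, 126 and 189 counts in 231 EV and 123, 47 and 158 in the knockdown, had a log2 fold change of -0.15 ± 0.22 (SE, edgeR adjusted p = 0.799). miR-1307-5p was at 0.04 ± 0.26 (adjusted p = 0.956) and miR-625-3p at 0.18 ± 0.29 (adjusted p = 0.802). Each arm of miR-1307 thus moved by less than its error.

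Of 24 miRNAs listed for other protein-coding genes, of which the hosts of 2 were not found in GENCODE 29 here, none was called lower and 2 were called higher with TMM, with a median of -0.06, and none lower and 6 higher with library totals, with a median of 0.29. Those higher were miR-126-3p, in the endothelial gene EGFL7 and itself one of the endothelial markers above (0.52, edgeR adjusted p = 0.00509), and miR-128-3p (0.52, adjusted p = 0.0295). miR-93-5p and miR-25-3p, the most abundant, were at -0.03 and 0.02. Of 12 miRNAs described as repressors of ABCA1, as miR-33a is, 11 were tested, none was called lower, and miR-128-3p alone was called higher with TMM, with a median of -0.10 (none lower, 2 higher and 0.24 with library totals). The most abundant of them were miR-26a-5p at -0.38 (edgeR adjusted p = 0.0660), miR-27a-3p at 0.13 and miR-20a-5p at 0.00305. With 6.0% called lower over all tested miRNAs, few or no lower calls would be found in lists of 9, 24 and 11 at that share, and nothing is read from their absence.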

How the data were processed

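Small RNA of EVs was sequenced in 6 libraries, 3 of each group. The authors removed adapters, kept reads in the size range of miRNAs, discarded matches to other RNA classes in Rfam, compared the rest with miRBase, and searched what remained for hairpins with Mireap or miRDeep2 to predict miRNAs. Bowtie2, StringTie and hg38 are named in the submitters' processing notes. The authors deposited raw counts per miRNA, and the TPM values that the authors deposited equal the count divided by the library total, brought to a common sum (largest departure 4.99e-05 TPM).

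Counts of the 517 miRNAs detected in 3 or more libraries were compared with edgeR 4.0.16 (R 4.3.3; quasi-likelihood test, TMM, no covariates) and adjusted over all 517 by Benjamini-Hochberg, at a threshold of 0.05. The common dispersion was 0.0433 (biological coefficient of variation 20.8%) with infinite prior degrees of freedom, so that a miRNA more variable than the rest gets too small a p-value. TMM factors were 0.840 to 0.915 in 231 EV and 1.09 to 1.20 in 231/ACO1 KD EV. Library totals ranged from 67873 to 230562 counts, and for a library with no read the upper limit was set at 3 counts (13.0 to 44.2 TPM). Ratios used a pseudocount of 0.5 and a two-sided exact permutation test. Alternatives were library totals, DESeq2 size factors within edgeR (RLE), DESeq2 1.42.0, limma 3.58.1 on log2(TPM + 1, 0.1 or 10), no filter, a mean TPM of at least 10, the robust option, a replicate block and each library left out. The tests were checked on counts simulated with 4-fold changes and the common dispersion for every miRNA. There edgeR recovered 72.0% of the changed miRNAs, and 3.60% of its calls were false. Smaller changes, such as those of the members, were not simulated, so the check says nothing on their calls. Replicates differed by more than counting noise, so each library was kept as 1 sample.

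The members, lists and tests were chosen with earlier results of these data known. Named miRNAs are the members, the called miRNAs and the 3 of highest mean TPM of each list and of the CAUUG holders, and the 2 whose values over the libraries were most like those of a member. Mature sequences and positions are from RefSeq (GRCh38.p14), and host introns of the members from GENCODE 29.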

Additional observations from a re-analysis of the deposited data

How the results depend on the processing

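Among the members, miR-107 kept its call in 12 of 16 alternatives, and no alternative turned the direction of a called member. With library totals the log2 fold changes were -0.77 for miR-33a-5p, -0.75 for miR-378a-3p, 1.13 for miR-378a-5p, -0.093 for miR-103a-3p and -0.40 for miR-107, so that no member was called lower and 1 was called higher. limma on log2(TPM + 1), (TPM + 0.1) and (TPM + 10), which uses the same scaling, gave -0.81, -0.81 and -0.76 for miR-33a-5p, -0.98, -0.99 and -0.88 for miR-378a-3p, -0.094 in all 3 for miR-103a-3p, and -0.42, -0.42 and -0.41 for miR-107. It gave 1.06 and 1.00 for miR-378a-5p with pseudocounts of 1 and 10, where 0 members were called lower and 1 higher. DESeq2 gave -1.09 for miR-33a-5p and -1.05 for miR-378a-3p, neither past the threshold, and called 2 members lower. RLE factors, no filter, a mean TPM of at least 10 and the robust option each left 4 members called lower and 0 called higher.

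Leaving out single libraries gave -1.39 to -0.92 for miR-33a-5p, -2.0 to 0.20 for miR-33b-5p, -1.89 to -0.55 for miR-378a-3p, 0.46 to 1.14 for miR-378a-5p, -0.51 to -0.39 for miR-103a-3p, 1 to 4 members called lower and 0 to 1 called higher, and -0.43 to 0.52 for the ratio of miR-33a-5p to miR-378a-3p. The ratio of the miR-378a arms ran from 1.11 to 2.89, and the ratios to miR-103a-3p from -0.95 to -0.49 for miR-33a-5p and from -1.25 to -0.20 for miR-378a-3p. The reversed values were 0.20 for miR-33b-5p, and -0.06 and -0.43 for the ratio of miR-33a-5p to miR-378a-3p. Holders of CAUUG called lower numbered 1 with library totals and 2 to 7 with a library left out, and those called higher 3 with library totals, 2 with DESeq2 and 0 to 2 with a library left out. With library totals 6 miRNAs of other host genes and 2 ABCA1 repressors were called higher. Fewer samples and fewer tested miRNAs enter each fit that leaves out a library, while library totals and limma raised the median log2 fold change of all tested miRNAs from -0.03 to 0.32 and to 0.22 to 0.26. The cause of the calls lost with DESeq2 was not tested.

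The labels do not say whether the replicate numbers pair the libraries. The deviations of same-numbered libraries from their group means correlated at 0.113, 0.117 and 0.000455, which cannot decide it with 3 libraries a group. Fitted with a replicate block, 4 members were called lower and 0 called higher. The log2 fold changes were -1.08 for miR-33a-5p, -0.61 for miR-33b-5p, -1.20 for miR-378a-3p, 0.74 for miR-378a-5p, -0.45 for miR-103a-3p and -0.77 for miR-107. Over all miRNAs 31 lower and 13 higher calls were made, the numbers found without the block. 4 of the 6 libraries correlated best with the library of their own number. Depth limits miR-33b-5p (14 counts in all), and miR-33a-5p and miR-378a-3p in knockdown replicates where they had 6 to 8 counts.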
